A study of Rattus norvegicus with 15 samples.

Results

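Androgen signalling in the rat prostate was described through 7 genes: Foxa1, Ncoa4, Srd5a1, Srd5a2, Hsd17b4, Fkbp5 and Tmprss2. They were taken by name from the 22436 genes of the deposited table, as a cofactor and a coactivator of the androgen receptor, enzymes of androgen metabolism, and target genes of the receptor. Their measured values did not enter this choice by name, though earlier results of these data were known when it was made. All 7 were among the 12490 genes with enough expression to be tested.

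The 15 RNA-seq libraries came from prostates of SD rats, an outbred laboratory strain. The groups were 5 libraries of untreated rats (Control), 5 of rats with an induced chronic prostatitis and pelvic pain, the disease model (Model), and 5 of rats given low-intensity pulsed ultrasound, bursts of sound waves used as a physical treatment, for 4 weeks (LIPUS). The design text of the series says that the ultrasound was given to rats of the disease model, so LIPUS against Control compares treated diseased rats with untreated healthy ones. The sample labels alone do not state the disease in the LIPUS rats. The ultrasound intensity is 1.0 W/cm2 in the sample titles and 1.5 W/cm2 in the treatment field of the labels, so it is not settled here. The age of the rats, the agent that induced prostatitis and the part of the gland that was sampled are not given in the sources used here. Replicates are numbered 6 to 10 within every group, and the labels do not say that they came from separate animals. The p-values below therefore measure the spread between these libraries, which may be technical.

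The androgen receptor is a transcription factor that is activated by testosterone and, more strongly, by dihydrotestosterone. Steroid 5-alpha-reductases turn testosterone into dihydrotestosterone inside the prostate, and enzymes such as the product of Hsd17b4 oxidise active steroids to weaker ones. The hormone-free receptor is held by chaperones in the cytoplasm, and the activated receptor binds DNA at sites that FOXA1 helps to open. Growth and secretion of the prostate epithelium depend on this pathway.

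Start-site sequences are shown for 4 of the genes, the coactivator, both reductases and the target gene whose change kept its call on both scales used here. They come from RefSeq, build GRCr8, which is a later build than the rn6 of the submitters' processing notes. Each runs 5′ to 3′ on the gene's own strand, from 250 bases before the annotated start to 50 bases after it. Capitals mark the motifs TATAAA and CCAAT, searched on both strands.
Ncoa4, chr16:7401541-7401840, plus strand: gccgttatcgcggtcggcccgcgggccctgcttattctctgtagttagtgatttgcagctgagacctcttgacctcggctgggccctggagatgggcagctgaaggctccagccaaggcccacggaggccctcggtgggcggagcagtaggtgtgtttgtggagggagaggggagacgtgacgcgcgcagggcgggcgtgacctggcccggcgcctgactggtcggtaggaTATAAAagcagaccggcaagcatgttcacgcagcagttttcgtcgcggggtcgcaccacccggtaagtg
Srd5a1, chr1:35514664-35514963, plus strand: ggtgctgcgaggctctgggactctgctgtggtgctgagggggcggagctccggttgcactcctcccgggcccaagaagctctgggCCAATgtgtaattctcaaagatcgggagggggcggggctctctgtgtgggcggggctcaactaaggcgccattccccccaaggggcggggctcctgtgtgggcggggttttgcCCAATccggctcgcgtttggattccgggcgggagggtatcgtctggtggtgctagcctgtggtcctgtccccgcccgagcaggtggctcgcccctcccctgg
Srd5a2, chr6:27177839-27178138, plus strand: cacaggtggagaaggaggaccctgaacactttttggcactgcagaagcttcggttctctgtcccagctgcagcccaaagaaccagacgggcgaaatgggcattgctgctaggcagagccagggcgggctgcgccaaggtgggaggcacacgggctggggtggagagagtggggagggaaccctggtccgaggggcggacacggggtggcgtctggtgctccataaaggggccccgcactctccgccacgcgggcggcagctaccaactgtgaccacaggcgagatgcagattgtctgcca
Tmprss2, chr11:50443065-50443364, minus strand: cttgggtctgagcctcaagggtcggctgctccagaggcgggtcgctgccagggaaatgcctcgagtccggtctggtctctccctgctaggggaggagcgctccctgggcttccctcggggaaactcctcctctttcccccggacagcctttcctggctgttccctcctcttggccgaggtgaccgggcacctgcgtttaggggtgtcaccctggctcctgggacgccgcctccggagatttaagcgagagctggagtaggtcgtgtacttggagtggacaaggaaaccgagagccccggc
The Ncoa4 window holds a TATAAA 19 bases before the start, which 14.22% of the 33469 RefSeq windows hold. The Srd5a1 window holds CCAAT 165 and 52 bases before the start, a motif found in 37.49% of windows. The windows of Srd5a2 and Tmprss2 hold neither. The receptor half-site AGAACA, or its complement TGTTCT, is in none of these 4 windows. It occurs in 20.68% of all windows and, among the 6 genes with a window, only in that of Hsd17b4, as TGTTCT 206 and 141 bases before the start. A match describes letters in the window, not a site in use.

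Libraries held 29675962 to 36402094 reads, recovered from the FPKM values (fragments normalised to gene length and library depth). Their make-up differed between groups. Mitochondrially encoded genes took 3.75% to 4.69% of reads in Control, 23.5% to 43.5% in Model and 43.0% to 83.3% in LIPUS, with the highest share in LIPUS replicate 10. The other genes share what is left, and the median change of all tested genes was -0.90 (log2) in Model against Control, -0.60 in LIPUS against Model and -1.48 in LIPUS against Control. Each value is therefore given as deposited and again after median-of-ratios scaling, which divides a library by its typical gene ratio and brings these medians to -0.15, -0.02 and -0.16. After scaling, the median change in Model against Control still ran from 0.50 in genes of 168 to 1533 bases to -0.58 in genes of 5640 to 58385 bases. Of the 7 genes, Foxa1 is in the longest of these 5 length classes. Ncoa4, Srd5a2, Fkbp5 and Tmprss2 are in the class of 3645 to 5635 bases, whose median there was -0.37. Of the list genes named below, Nr3c1 and Lifr are in the longest class and Hsd17b8 and Fth1 in the shortest. A lobe ratio was taken as the log2 ratio of the summed FPKM of 4 secretory genes of the ventral lobe to that of 2 of the dorsolateral lobe. It was 1.22 to 5.89 in Control and -0.64 to 4.57 in LIPUS. It was -9.49 to -2.80 in 4 Model libraries and 7.82 in Model replicate 7, which stands apart. The ratio thus differed between groups, and it rests on secretory genes, while secretion itself depends on the androgen pathway. As a covariate it may therefore also take out group differences and androgen response. Such fits cannot tell these from the sampled lobe. Summed scaled FPKM of luminal markers was 309 to 341 in Control, 283 to 593 in Model and 299 to 442 in LIPUS. The 6 luminal markers did not move together. In Model against Control, 2 were lower and 0 higher as deposited, and 0 lower and 2 higher after scaling. Cdh1 was at 59.4 to 85.0 FPKM in Control and 3.10 to 36.4 in Model, and Krt18 at 83.8 to 116 and 119 to 168. Summed scaled FPKM of fibroblast markers was 427 to 730.2 in Control, 53.2 to 156 in Model and 71.8 to 474 in LIPUS. Dcn alone held 369 of the 474 in LIPUS replicate 10. Without Dcn the fibroblast sum was 299 to 568, 6.81 to 44.0 and 21.1 to 105 in the same order, and the groups with disease stayed below Control. Smooth muscle markers summed to 612 to 1468, 73.4 to 630 and 179 to 843, and endothelial markers to 6.43 to 11.8, 0.514 to 4.13 and 0.900 to 2.20. Of 4 basal markers in the table, 3 were lower in Model against Control on both scales used below. The leukocyte sum was 4.87 to 7.54, 4.81 to 14.2 and 13.2 to 37.4. Its markers did not move together. Of 4 tested, 2 were lower and 0 higher in Model against Control on both scales. Ptprc was at 1.44 to 2.18 FPKM in Control and 0.26 to 0.56 in Model, and Cd68 at 1.79 to 3.96 and 1.74 to 12.3. In such tissue libraries, fewer cells of a type and less RNA per cell cannot be told apart. The part of these differences in the results below was not tested. Values with the lobe ratio as a covariate, or without a library, show only how a result moves with that setting.

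The 7 genes did not move together. Tmprss2 fell in Model on both scales. Foxa1 and Srd5a2 fell in LIPUS against Control on both, though these 2 scaled calls were lost without LIPUS replicate 10. The scaled Foxa1 change there was near the median of its length class, given below. In the main fits on the 2 scales, Ncoa4 was the only one of the 7 called higher, after scaling and not as deposited. With array weights on the deposited values, 1 of the 7 was called higher in Model against Control. A gene was called where limma gave an adjusted p under 0.05 over all tested genes. In Model against Control, 2 of the 7 were lower and 0 higher in values as deposited, against a background of 43.1% lower and 2.95% higher over all tested genes, 46.0% in all. Without LIPUS replicate 10, which enters the shared estimate of spread, 5 of the 7 were called there. Calls over all 12490 tested genes then rose too, from 5750 to 6979. After scaling, 1 was lower and 1 higher, against 20.2% and 15.3%, 35.5% in all. In LIPUS against Model, 3 were lower and 0 higher as deposited, where 13.3% of all genes were lower and 1.31% higher, 14.6% in all. None of the 7 was called after scaling, where 4.21% of all genes were (2.72% higher and 1.49% lower), and 3 of the 7 (Foxa1, Srd5a2 and Tmprss2) had an unadjusted limma p under 0.05. Fitted as deposited with only these 10 libraries, 0 were called, and 3 of the 12490 tested genes were. Limma-voom on the recovered reads of all libraries called 2 of the 7, and 1880 over all tested genes. In LIPUS against Control, 6 were lower as deposited, where 74.4% of all genes were lower and 75.4% were called in all, so this count is near the background. After scaling, 2 were lower and 1 higher, against 14.3% and 11.6%, 25.8% in all. The median change of the 7 was -0.89, -1.21 and -1.74 in the 3 comparisons as deposited and -0.11, -0.57 and -0.36 after scaling. The comparisons share groups: the Model libraries serve in Model against Control and in LIPUS against Model, and the Control libraries in both comparisons with Control.

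**Figure D1:**
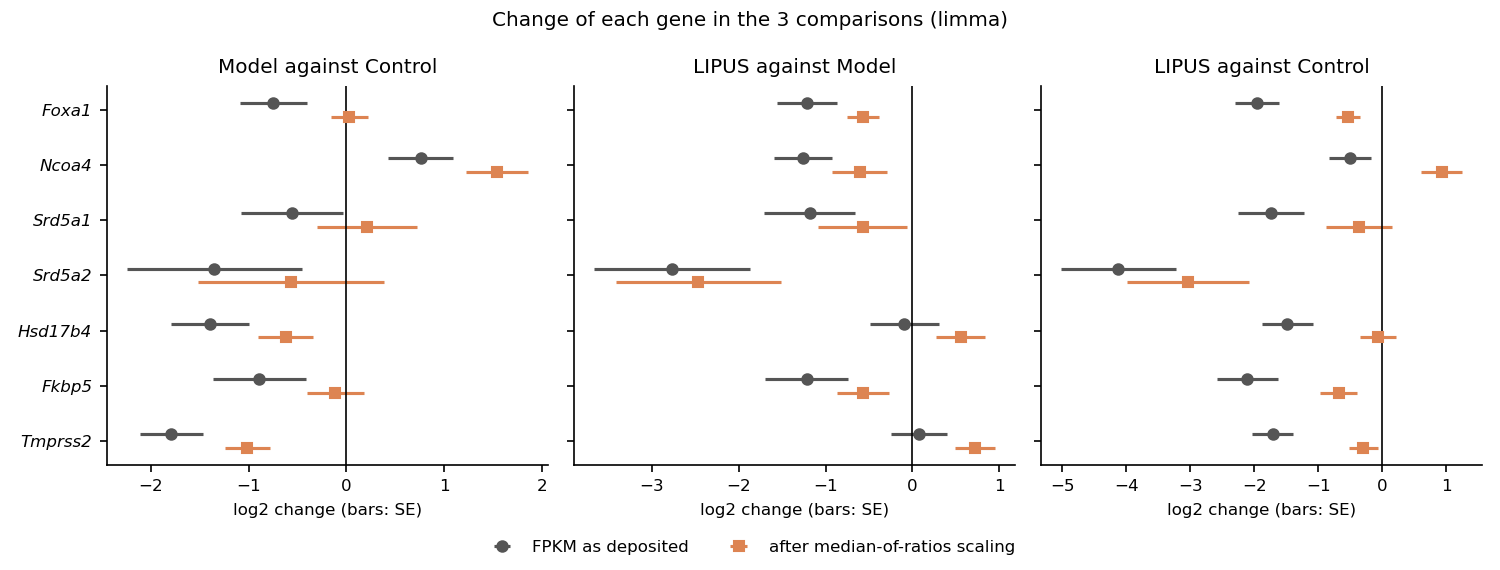
Log2 change (x axis) of each of the 7 genes (y axis) in the 3 comparisons, as deposited (circles) and after median-of-ratios scaling (squares), with bars of 1 SE from limma. In LIPUS against Control every deposited value is below 0, from -0.50 for Ncoa4 to -4.12 for Srd5a2, and scaling moves each to the right.

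By FPKM, which is per gene length, the 7 genes stood in the order Fkbp5, Ncoa4, Foxa1, Hsd17b4, Tmprss2, Srd5a2 and Srd5a1 in Control, at means of 103, 47.7, 32.2, 27.4, 16.0, 11.9 and 5.67 FPKM. The ranges of Foxa1 and Hsd17b4, of Tmprss2 and Srd5a2, and of Srd5a2 and Srd5a1 overlapped between libraries. Ncoa4 was above Fkbp5 in 0 of 5 Control, 4 of 5 Model and 3 of 5 LIPUS libraries. Srd5a2 was above Srd5a1 in 4 of 5 Control and 4 of 5 Model libraries but in 1 of 5 LIPUS libraries. Hsd17b4 was above Foxa1 in 1 of 5 Control, 1 of 5 Model and 4 of 5 LIPUS libraries.

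**Figure D2:**
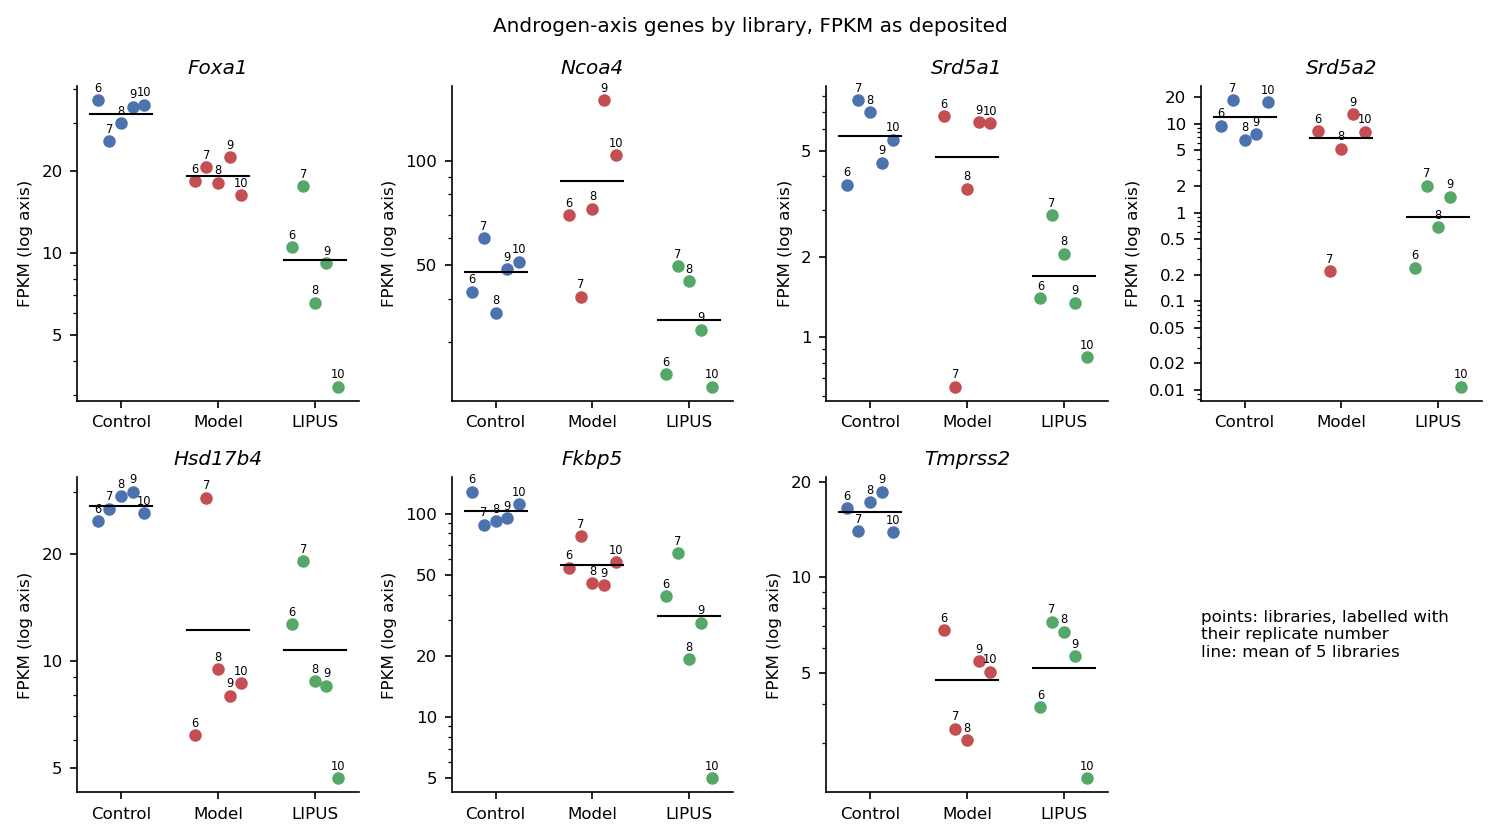
FPKM as deposited (y axis, log) of the 7 genes by group (x axis), with a point for each library, labelled with its replicate number, and a line at the mean of 5 libraries. Tmprss2 lies at 13.9 to 18.6 FPKM in Control and at or below 7.24 FPKM in every Model and LIPUS library.

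**Figure D3:**
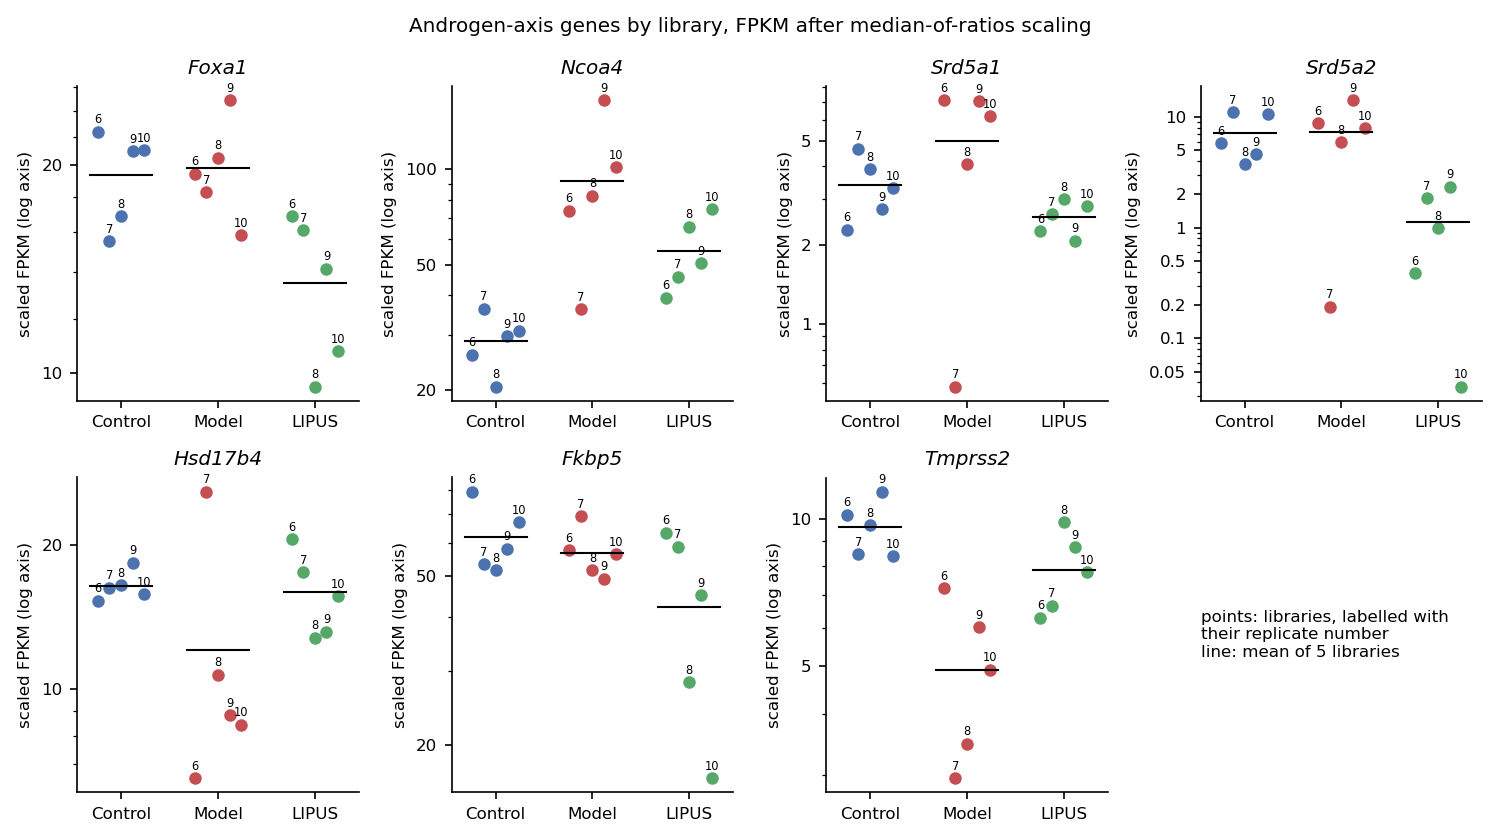
The same 7 genes after median-of-ratios scaling (scaled FPKM, log y axis, groups on the x axis, points for libraries and a line at the mean of 5). Foxa1 and Fkbp5 overlap between Control and Model, while Ncoa4 is higher in 4 of 5 Model libraries and in all 5 LIPUS libraries than in any Control library.

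Foxa1 encodes a pioneer factor, a protein that opens chromatin for the receptor and keeps the luminal cell identity. Control libraries held 36.3, 25.7, 29.9, 34.3 and 34.9 FPKM, Model libraries 18.3, 20.6, 18.1, 22.4 and 16.2 FPKM, and LIPUS libraries 10.5, 17.5, 6.55, 9.16 and 3.22 FPKM. Each Model library was below each Control library as deposited, yet the difference of -0.75 (SE 0.34) did not pass (adjusted p = 0.083), and 41.4% of all tested genes were lower with no overlap. After scaling, Control lay at 15.5 to 22.4 and Model at 15.9 to 24.8 scaled FPKM, a difference of 0.03 (SE 0.19, adjusted p = 0.916).

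Foxa1 fell in LIPUS. The change against Control was -1.96 as deposited (SE 0.34, adjusted p = 0.000178) and -0.54 after scaling (SE 0.19, adjusted p = 0.0461), with 3 of 5 LIPUS libraries below all Control libraries on the second scale. The median scaled change in LIPUS against Control was -0.57 in its length class, genes of 5640 to 58385 bases. The scaled fall of Foxa1 was thus near that of a typical gene of its length. Without LIPUS replicate 10 the scaled change was -0.46 and was not called (adjusted p = 0.0914). Against Model the change was -1.21 as deposited (adjusted p = 0.0338) and -0.57 after scaling (adjusted p = 0.0835). The deposited call was lost without any 1 of 6 libraries (Model replicates 6, 8, 9 and 10 and LIPUS replicates 6 and 8), with an adjusted p of up to 0.0843. It was also lost with the lobe ratio as a covariate (adjusted p = 0.0729) and with only the groups compared (adjusted p = 0.147). The scaled change was -0.59 without Model replicate 7 and then passed (adjusted p = 0.0311).

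Of 13 other prostate transcription factors, 5 were lower and 0 higher in Model against Control as deposited. After scaling, 0 were lower and 3 higher, and the list's median change was 0.65. Over all tested genes, 43.1% were lower and 2.95% higher as deposited, and 20.2% and 15.3% after scaling. The list counts in Model below stand against the same shares. Of 23 other receptor coregulators, 17 were lower as deposited and 6 of them also after scaling, when 2 others were higher. Tgfb1i1, a focal adhesion protein that can coactivate the receptor, fell in Model from 7.96 ± 2.58 to 0.859 ± 0.930 FPKM (SD, n = 5 each), a scaled change of -2.79 (adjusted p = 0.00198). Stromal cells also express it. The fibroblast sum above was below the Control range in every Model library. The smooth muscle sum overlapped, at 73.4 to 630 in Model and 612 to 1468 in Control. The part of stromal cells in this fall was not tested. Pelp1, a scaffold for steroid receptors, fell from 7.88 ± 0.931 to 2.56 ± 0.810 FPKM, a scaled change of -0.86 (adjusted p = 0.0107).

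Ncoa4 encodes a protein described first as a receptor coactivator and known as the receptor that carries ferritin to lysosomes, where its iron is released. Control libraries held 42.0, 60.0, 36.5, 48.7 and 51.3 FPKM and Model libraries 69.7, 40.6, 72.9, 149 and 104 FPKM. LIPUS libraries held 24.3, 49.8, 45.1, 32.6 and 22.4 FPKM. In Model, 4 of 5 libraries were above every Control library, and replicate 7 was within the Control range. The difference was 0.76 as deposited (SE 0.33, adjusted p = 0.071) and 1.54 after scaling (SE 0.32, adjusted p = 0.00173). Without Model replicate 7 both passed, at 1.00 (adjusted p = 0.0114) and 1.83 (adjusted p = 4.46e-05).

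In LIPUS, Ncoa4 was lower than in Model as deposited, by a change of -1.26 (adjusted p = 0.0293), and not called after scaling, at -0.61 (adjusted p = 0.24). Without any 1 of 5 libraries (Model replicates 6, 8, 9 and 10 and LIPUS replicate 6) the deposited call was lost, with an adjusted p of up to 0.0869, as it was with only the groups compared (adjusted p = 0.143). Without Model replicate 7 the scaled change was -0.90 and passed (adjusted p = 0.0133). Against Control its sign turned with the scale. It was -0.50 as deposited (adjusted p = 0.171) and 0.93 after scaling (SE 0.32, adjusted p = 0.0429), when all 5 LIPUS libraries, at 39.3 to 74.8 scaled FPKM, were above all Control libraries, at 20.6 to 36.3. Groups did not overlap in this direction for 11.2% of all tested genes. Without LIPUS replicate 10 the scaled change was 0.81 and was not called (adjusted p = 0.091).

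The scaled level of Ncoa4 tended to be higher where the lobe ratio was lower. The 4 Model libraries with negative ratios held 74.0 to 165 scaled FPKM, and Model replicate 7, with the highest ratio, held 36.1. With the ratio as a covariate the scaled change was 0.70 in Model against Control (adjusted p = 0.0209) and 0.64 in LIPUS against Control (adjusted p = 0.0109), both still called. In LIPUS against Model it was -0.07 (adjusted p = 0.868).

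Of the 15 other genes of iron storage and ferritin turnover, 2 were higher and 7 lower in Model as deposited, and 3 were higher and 5 lower after scaling. Fth1, the ferritin heavy chain that NCOA4 binds, rose in Model from 910 ± 253 to 5499 ± 2140 FPKM (SD, n = 5 each). Its change was 2.52 as deposited (SE 0.34, adjusted p = 2.96e-05) and 3.30 after scaling (adjusted p = 1.5e-05). In LIPUS its mean was 1815 ± 510 FPKM, with a change against Model of -1.53 as deposited (adjusted p = 0.0253) and -0.87 after scaling (adjusted p = 0.15). Steap3, a reductase that prepares iron for export from endosomes, fell in Model by 2.66 as deposited and by 1.91 after scaling (adjusted p = 0.000308). Fth1 is 828 bases long, in the shortest length class, whose median scaled change was 0.50.

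Srd5a1 and Srd5a2 encode the reductases that make dihydrotestosterone. In the prostate the type 2 enzyme is known mainly from the stroma and the type 1 enzyme from the epithelium. Control libraries held 3.72, 7.71, 6.94, 4.50 and 5.49 FPKM of Srd5a1, Model libraries 6.72, 0.652, 3.60, 6.38 and 6.34, and LIPUS libraries 1.40, 2.86, 2.05, 1.35 and 0.843. Model replicate 7 was far below the other Model libraries. All LIPUS libraries were below all Control libraries as deposited, as for 59.4% of all tested genes. Srd5a1 was lower in LIPUS against Control as deposited, at -1.74 (SE 0.52, adjusted p = 0.00726), but not after scaling, at -0.36 (adjusted p = 0.645).

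Model against Control depended on a library and on the covariate. It gave -0.55 for Srd5a1 as deposited (adjusted p = 0.398) and 0.21 after scaling (adjusted p = 0.78). The scaled change was 0.84 without Model replicate 7 (adjusted p = 0.00853). With all libraries and the lobe ratio as a covariate it was -1.24 (adjusted p = 0.00294). The sign of the Srd5a1 change in Model thus turned with the setting. LIPUS against Model gave -1.18 as deposited (adjusted p = 0.11) and -0.57 after scaling (adjusted p = 0.492). Without Model replicate 7 both passed, at -1.77 (adjusted p = 0.00294) and -1.20 (adjusted p = 0.00222).

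Srd5a2 was at 9.47, 18.3, 6.63, 7.61 and 17.6 FPKM in Control and 8.29, 0.217, 5.23, 12.8 and 8.10 in Model. In LIPUS it was at 0.240, 2.01, 0.682, 1.51 and 0.0110 FPKM, the last from 2 reads and so under the floor of 3 reads. Every LIPUS library was below every Control library as deposited, as for 59.4% of all tested genes, and also after scaling, as for 15.3%. Srd5a2 fell by 4.12 in LIPUS against Control (SE 0.90, adjusted p = 0.000885) and by 3.04 after scaling (SE 0.95, adjusted p = 0.0289). Without LIPUS replicate 10 the change as deposited was -3.50 (adjusted p = 0.00316), and the scaled change of -2.40 was not called (adjusted p = 0.068). Without that library and Model replicate 7 together, the same scaled change was called (adjusted p = 0.00121). Against Model it fell by 2.77 as deposited (adjusted p = 0.0475), and the scaled change of -2.47 did not pass (adjusted p = 0.125). The deposited call against Model was kept only without Model replicate 7 or LIPUS replicate 7 or 9, and lost without each of the other 12 libraries in turn, with an adjusted p of up to 0.121. It was lost as well at a pseudocount of 0.01 (adjusted p = 0.0659), with limma-voom (adjusted p = 0.106), with only the groups compared (adjusted p = 0.15) and with the lobe ratio, at -1.40 (adjusted p = 0.155). Without Model replicate 7 both passed, at -3.72 (adjusted p = 0.00186) and -3.45 (adjusted p = 0.00228). Model against Control gave -1.35 (adjusted p = 0.225) and -0.57 after scaling (adjusted p = 0.677). With the lobe ratio as a covariate the scaled change was -2.72 and was called (adjusted p = 0.024), and without Model replicate 7 it was 0.41 (adjusted p = 0.642). The fibroblast sum without Dcn was below the Control range in every Model and LIPUS library. Of the Model libraries, 4 held 5.93 to 14.2 scaled FPKM of Srd5a2. The smooth muscle sum was 630, 73.4, 442, 297 and 628 in Model replicates 6 to 10 and 612 to 1468 in Control. It was thus lowest in Model replicate 7, where Srd5a2 was lowest too. In LIPUS the smooth muscle sum was highest in replicate 10, at 843, where scaled Srd5a2 was lowest, at 0.037. It was lowest in LIPUS replicate 7, at 179, where scaled Srd5a2 was 1.85. The part of stromal cells in the Srd5a2 values was not tested.

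The reductases were also set against each other within each library, as the log2 ratio of Srd5a1 to Srd5a2 after adding 0.1 FPKM to both. Scaling moves this ratio only through the added 0.1, which weighs most where Srd5a2 is low. The ratio was -1.33, -1.24, 0.06, -0.74 and -1.66 in Control, a mean of -0.98 ± 0.67 (SD, n = 5). It was -0.30, 1.25, -0.53, -0.99 and -0.35 in Model, a mean of -0.18 ± 0.85, and 2.14, 0.49, 1.46, -0.16 and 3.09 in LIPUS, a mean of 1.40 ± 1.29. The highest, 3.09 in LIPUS replicate 10, rests on 2 reads of Srd5a2 and was 4.41 from scaled FPKM. In LIPUS, 4 of 5 libraries were above all Control libraries. The difference between LIPUS and Control was 2.38 (two-sided exact permutation test, p = 0.0159, and 0.0476 adjusted over the 3 comparisons). It was 2.68 from scaled FPKM, 1.47 at a pseudocount of 1 and 2.94 at 0.01, all called. LIPUS against Model gave 1.59 (exact permutation p = 0.0476, adjusted 0.0714) and Model against Control 0.80 (exact permutation p = 0.135, adjusted 0.135), neither of which passed. LIPUS against Model passed without Model replicate 7 (1.95, adjusted exact permutation p = 0.0238) or without LIPUS replicate 7 or 9. Model against Control passed without Control replicate 8 (1.06, adjusted exact permutation p = 0.0476). The smallest p the test can give is 0.00794. Leaving out any 1 of 7 of the 10 libraries (Control replicates 6, 7, 9 and 10 and LIPUS replicates 6, 8 and 10) ended the call against Control, with an adjusted exact permutation p of up to 0.0952, while the difference stayed between 1.96 and 2.78.

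Of the 15 other tested genes of androgen synthesis and breakdown, from 31 in the table, 8 were lower and 1 higher in Model as deposited, and 5 were lower and 2 higher after scaling. Ugt2b10, a glucuronosyltransferase of a family that inactivates steroids, fell from 1.58 ± 0.415 to 0.0996 ± 0.136 FPKM (SD, n = 5 each), a scaled change of -2.56 (adjusted p = 0.00585). Model replicates 6 to 10 held 10, 0, 16, 1 and 0 reads of it, some under the floor of 3 reads. The size of its fall thus leans on the added 0.1 FPKM. Hsd11b1, which regenerates active glucocorticoid, fell by 1.74 as deposited and by 1.00 after scaling (adjusted p = 0.0339). Hsd17b8, a mitochondrial dehydrogenase that can oxidise estradiol, averaged 6.40 ± 0.586 FPKM in Control libraries, 16.8 ± 2.09 FPKM in Model libraries and 6.45 ± 3.05 FPKM in LIPUS libraries (SD, n = 5 each). It rose in Model by 1.37 as deposited (adjusted p = 0.00238) and by 2.14 after scaling (adjusted p = 8.3e-06). It was the gene of this list that fell in LIPUS against Model on both scales, by 1.51 (adjusted p = 0.025) and 0.86 (adjusted p = 0.0353), with no overlap between the groups. The deposited call was lost without Model replicate 8, 9 or 10 or LIPUS replicate 6 (adjusted p up to 0.0767) and with only the groups compared (adjusted p = 0.143). The scaled call was lost without LIPUS replicate 10 (adjusted p = 0.0584), and with the lobe ratio neither passed.

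**Figure D4:**
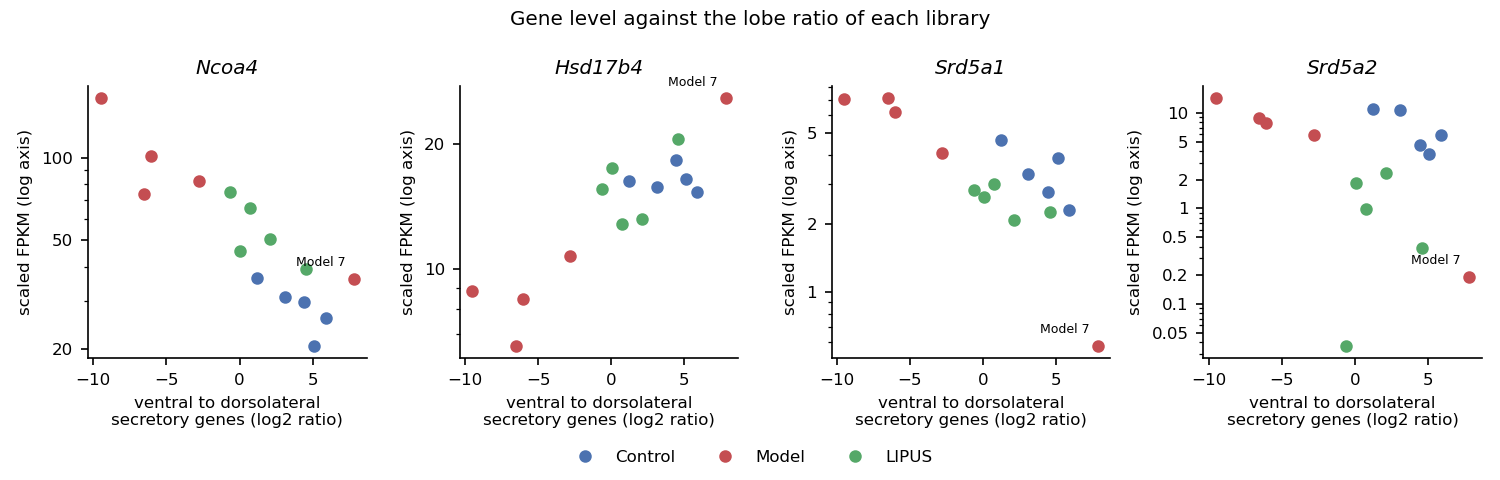
Scaled FPKM (y axis, log) of Ncoa4, Hsd17b4, Srd5a1 and Srd5a2 against the lobe ratio of each library (x axis, log2 ratio of ventral to dorsolateral secretory genes), with a point for each library coloured by group. Model replicate 7, at a ratio of 7.82, has the highest scaled Hsd17b4, at 25.7, and the lowest scaled Srd5a1, at 0.58.

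Hsd17b4 encodes a peroxisomal protein of several functions. It oxidises estradiol and androstenediol and also serves the breakdown of very long and branched fatty acids. Control libraries held 24.8, 26.9, 29.2, 30.0 and 26.2 FPKM and Model libraries 6.17, 28.9, 9.47, 7.99 and 8.66 FPKM. LIPUS libraries held 12.7, 19.1, 8.78, 8.51 and 4.67 FPKM. In Model, 4 libraries were below all Control libraries and replicate 7 was within the Control range. Hsd17b4 was lower in Model against Control as deposited, at -1.40 (SE 0.40, adjusted p = 0.00922), and the scaled change of -0.62 did not pass (adjusted p = 0.1). Without Model replicate 7 the scaled change was -0.94 and passed (adjusted p = 0.000428), and with the lobe ratio as a covariate it was 0.07 (adjusted p = 0.823).

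In LIPUS against Control, Hsd17b4 was lower as deposited, at -1.49 (adjusted p = 0.00366), with no overlap, as for 59.4% of all tested genes. After scaling the change was -0.06 (SE 0.28, adjusted p = 0.893). LIPUS against Model gave -0.09 (adjusted p = 0.879) and 0.56 after scaling (adjusted p = 0.227). The scaled difference was 0.87 without Model replicate 7 and then passed (adjusted p = 0.00216). Of 18 other tested genes of peroxisomal fatty acid oxidation, 1 was lower in Model as deposited, and 0 were lower and 4 higher after scaling.

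Fkbp5 encodes FKBP51, a cochaperone of steroid receptors whose gene is induced by androgens and by glucocorticoids. Control libraries held 128, 88.4, 91.9, 95.2 and 111 FPKM and Model libraries 54.3, 77.7, 45.7, 44.6 and 57.6 FPKM. LIPUS libraries held 39.2, 63.9, 19.3, 29.1 and 5.01 FPKM. All Model and LIPUS libraries were below all Control libraries as deposited. The same held for 41.4% of all tested genes in Model and 59.4% in LIPUS. The Model difference of -0.89 (SE 0.48) did not pass (adjusted p = 0.132), and after scaling it was -0.11 (SE 0.29, adjusted p = 0.795). Fkbp5 was lower in LIPUS against Control as deposited, at -2.11 (adjusted p = 0.00114), and not called after scaling, at -0.68 (adjusted p = 0.104). LIPUS against Model gave -1.22 (adjusted p = 0.0809) and -0.57 after scaling (adjusted p = 0.237).

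Other genes that answer glucocorticoids, and the receptor chaperones, were read beside Fkbp5. Of 14 genes on the glucocorticoid list, 6 were lower in Model as deposited and 2 after scaling, with none higher. Over all tested genes, 43.1% were lower as deposited and 20.2% after scaling. Nr3c1, the glucocorticoid receptor, fell from 9.01 ± 0.804 to 2.16 ± 0.987 FPKM (SD, n = 5 each), a scaled change of -1.33 (adjusted p = 0.00174). Klf9, a transcription factor induced by glucocorticoids, fell by 2.93 as deposited and by 2.16 after scaling (adjusted p = 7.5e-05). Of 15 chaperones, 5 were lower as deposited, and after scaling 1 was lower and 5 were higher. Hsp90aa1, the stress-inducible form of HSP90, was the chaperone called lower on both scales. Its mean was 164 ± 28.8 FPKM in Control (SD, n = 5). Model replicate 7 held 178 FPKM, within the Control range, and the other 4 Model libraries 10.8 to 30.8 FPKM. The scaled change was -1.78 (adjusted p = 0.0182), and -2.40 without that library (adjusted p = 3.3e-05). With the lobe ratio as a covariate it was -0.37 and was not called (adjusted p = 0.481).

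Tmprss2 encodes a transmembrane serine protease of the prostate epithelium and is a direct target of the receptor. Control libraries held 16.5, 14.0, 17.2, 18.6 and 13.9 FPKM, Model libraries 6.81, 3.33, 3.07, 5.44 and 5.04 FPKM, and LIPUS libraries 3.90, 7.24, 6.74, 5.65 and 2.33 FPKM. All Model libraries were below all Control libraries on both scales. This held for 41.4% of all tested genes as deposited and 18.3% after scaling. Tmprss2 fell in Model by 1.79 as deposited (SE 0.33, adjusted p = 0.000396) and by 1.02 after scaling (SE 0.23, adjusted p = 0.00319). The median scaled change of its length class was -0.37. Model replicate 7, with 2.96 scaled FPKM, was the lowest Model library, and without it the scaled change was -0.86 (adjusted p = 0.00358). With the lobe ratio as a covariate the scaled change was -1.42 (adjusted p = 0.000558).

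In LIPUS, Tmprss2 was lower than in Control as deposited, at -1.71 (SE 0.33, adjusted p = 0.000339), and not called after scaling, at -0.30 (adjusted p = 0.374). LIPUS against Model gave 0.08 (adjusted p = 0.874) and 0.72 after scaling (SE 0.23, adjusted p = 0.0773), when LIPUS lay at 6.29 to 9.84 and Model at 2.96 to 7.22 scaled FPKM. With the lobe ratio as a covariate the scaled difference was 0.98 and passed (adjusted p = 0.0234). Of 6 other tested membrane serine proteases and their inhibitors, from 11 in the table, 2 were lower in Model as deposited and 0 after scaling, where none was higher.

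Other androgen-response genes were read beside Fkbp5 and Tmprss2, 44 tested of 46 in the table. In Model, 23 were lower and 0 higher as deposited, and 15 were lower and 5 higher after scaling, with median changes of -1.46 and -0.68. Over all tested genes, 43.1% were lower and 2.95% higher as deposited, and 20.2% and 15.3% after scaling. In LIPUS against Control, 35 were lower as deposited, where 74.4% of all tested genes were, so this count is near the background. After scaling, 16 were lower and 5 higher, against 14.3% and 11.6%. In LIPUS against Model, 5 were lower as deposited, against 13.3%, and 1 was higher after scaling, against 2.72%. B4galt1, a galactosyltransferase, fell from 49.7 ± 11.9 to 2.27 ± 1.47 FPKM in Model (SD, n = 5 each), a scaled change of -3.78 (adjusted p = 8.3e-06). Lifr, the receptor of leukemia inhibitory factor, fell from 8.26 ± 1.45 to 0.312 ± 0.201 FPKM, a scaled change of -3.68 (adjusted p = 9e-06).

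The 4 genes known to rise in the prostate after castration did not rise in Model. All 4 were lower as deposited and 2 also after scaling. Igfbp5, a binding protein of insulin-like growth factors that is also a stromal gene, fell from 69.6 ± 13.0 to 0.918 ± 0.967 FPKM (SD, n = 5 each), a scaled change of -5.69 (adjusted p = 8.3e-06). In LIPUS it was at 3.22 ± 1.90 FPKM, higher than in Model by 1.90 as deposited (adjusted p = 0.0267) and by 2.55 after scaling (adjusted p = 0.0223). That call was lost as deposited without Model replicate 6, 8, 9 or 10 or LIPUS replicate 6 (adjusted p up to 0.0818) and with only the groups compared (adjusted p = 0.143). It was lost after scaling without LIPUS replicate 10 (adjusted p = 0.0519), and with the lobe ratio on both scales (1.20, adjusted p = 0.0729, and 1.93, adjusted p = 0.053). Clu, the secreted chaperone clusterin, fell in Model from 91.0 ± 65.8 to 17.9 ± 8.07 FPKM, a scaled change of -1.54 (adjusted p = 0.0311).

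Likeness of pattern was measured by the root mean square difference of centred log2 scaled levels over the 15 libraries, where 0 is the same pattern. Foxa1 was most like Rbm47 (0.15) and Ap1g1 (0.16), and Ncoa4 most like Mettl9 (0.26) and Traf2 (0.28). Srd5a1 was most like Elovl5 (0.28) and Ankrd10 (0.29), and Hsd17b4 most like Polr3c (0.14) and Ccdc186 (0.14). Fkbp5 was most like Opa1 (0.16) and Rasgrp1 (0.17), and Tmprss2 most like Arl6ip5 (0.24) and Nrdc (0.26). Srd5a2 had no gene as near, with Ism1 at 0.68 and Abhd2 at 0.70. Within the 7, the nearest pair was Fkbp5 and Foxa1 (0.34), and Srd5a2 was the farthest from each of the others (1.55 to 2.31). These values describe likeness over libraries that also share differences in make-up, and no test was made of them.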

How the data were processed

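RNA-seq covered 15 prostate samples of SD rats, made with TRIzol and a VAHTS Universal V5 library kit, per the labels. The deposited values are FPKM for 22436 genes, 1 per gene and sample. The authors used HISAT2, HTSeq, fastp, DESeq2, SAMtools and R 3.2.0 with the build rn6, per the submitters' processing notes. Their roles and the strand setting are not given in the sources used here. Reads of overlapping genes could therefore be counted together.

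Reads per gene were recovered from FPKM. All 22436 genes gave whole reads within 0.001. A floor of 3 reads covers only counting error. Libraries were checked for copies, and none was found (lowest chi-square per degree of freedom 75.1). Genes above 0.5 FPKM in at least 5 samples were tested on log2(FPKM + 0.1) with limma 3.58.1 in R 4.3.3, with all 15 samples in 1 fit, limma's trend option and p-values adjusted by Benjamini-Hochberg over 12490 genes. Fold changes on this scale understate those of low genes. Scaled values are FPKM divided by median-of-ratios factors from 10313 genes above 0 in every library, fitted the same way. The fit was tested on simulated data. The reductase ratio was tested by exact permutation. The same pseudocount was used there.

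The 7 genes, the gene lists and the alternatives were chosen with earlier results of these data known. Named list genes are, per list, up to 2 with the smallest p in Model against Control and 1 in LIPUS against Model among those called in the same direction on both scales. For likeness, the 2 nearest tested genes are named. Alternatives were other scalings, pseudocounts, filters, fits and covariates, a replicate block and left-out libraries. Fits without Model replicate 7 and LIPUS replicate 10 together, scaling combined with other settings, and the reductase ratio from scaled FPKM, were added after seeing the data. Some list genes are not reported here.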

Additional observations from a re-analysis of the deposited data

Results flagged for a closer look

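Model replicate 7 lay far from the other Model libraries in Hsd17b4 on both scales. It held 28.9 FPKM where the other 4 held 6.17 to 9.47, and 25.7 scaled FPKM where they held 6.54 to 10.7. Its gap to the nearest library, divided by the range of the group, was above Dixon's 95% critical value of 0.71 in each case. Of 45 groups of 5 checked, 2 were above it, and chance puts about 1 in 20 groups there. The lobe ratio of this library was 7.82 and that of the other Model libraries -9.49 to -2.80. The part of that difference in these values was not tested.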

How the results depend on the processing

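Of 693 values of the 7 genes under other settings, 521 kept their direction and side of the threshold, 93 lost a call, 34 gained one and 45 changed sign. The number of the 7 genes called in Model against Control (2) was 5 with array weights and without Model replicate 7 and LIPUS replicate 10 together. It was 4 with only the groups compared, with scaling and the lobe ratio, and with scaling without Model replicate 7 or without both libraries. Of all 12490 tested genes, 5750 were called as deposited, 8953 with array weights, 7868 without both libraries and 7636 with only the groups compared. With scaling, 4182 of them were called with the lobe ratio, 5883 without Model replicate 7 and 6659 without both. In LIPUS against Model (3) the number of the 7 called was 5 with array weights, where 3637 of all tested genes were called. It was 0 with the lobe ratio (62 of all genes), median-of-ratios scaling (526), quantile normalization (464), scaling to nuclear FPKM (261) or only the groups compared (3). It was 1 with no filter on low values (812 of 22436) or with scaling and the lobe ratio (383). With scaling it was 5 without Model replicate 7 (3997 of all genes) and 0 without LIPUS replicate 10 (185). In LIPUS against Control (6) it was 3 with median-of-ratios scaling (3228 of all genes), also without Model replicate 7 (4293), and 3 with quantile normalization (2945). It was 2 with nuclear FPKM (3006) or with scaling without both libraries (4649), and 0 with scaling without LIPUS replicate 10 (3228). Leaving out each library in turn gave 2 to 5 (5 without LIPUS replicate 10), 0 to 4 (outside 1.5 times the main count without Model replicate 6, 8, 9 or 10 or LIPUS replicate 6 or 8) and 6 to 6 calls of the 7 in the 3 comparisons. Over all tested genes it gave 4889 to 6979, 8 to 4576 and 8655 to 10108 calls. The reductase ratio differences were 0.44 to 1.06, 1.17 to 1.98 and 1.96 to 2.78. The ratio difference of LIPUS against Model passed at a pseudocount of 1 (0.88), without both libraries (1.53) and without Model replicate 7 or LIPUS replicate 7 or 9 (1.95, 1.82 and 1.98), and that of Model against Control without Control replicate 8 (1.06).

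The replicate numbers did not pair the samples: correlations of same-numbered deviations ran from -0.42 to 0.25. With a replicate block, 0 genes were called in LIPUS against Model, with or without scaling, 0 in LIPUS against Control after scaling, and the paired reductase ratio difference of 2.38 between LIPUS and Control did not pass. Over all genes, calls in LIPUS against Model went from 1820 to 3 with the block and to 3 with only the groups compared. After scaling, the block left 128 calls there and 2861 in LIPUS against Control.

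Signs turned as follows. Foxa1 in Model against Control was 0.031 with scaling, also with the block or without LIPUS replicate 10, 0.055 with scaling without Model replicate 7 and 0.043 with scaling and the lobe ratio. Srd5a1 there was 0.012 with array weights, 0.030 without both libraries, -0.77 to 0.030 over all single libraries left out (0.030 without Model replicate 7), 0.46 with quantile normalization, 0.21 with scaling, also with the block or without LIPUS replicate 10, and 0.84 with scaling without Model replicate 7. With scaling, Srd5a2 was 0.41 without Model replicate 7, and with the lobe ratio Hsd17b4 was 0.074 and Fkbp5 0.22. In LIPUS against Model, Hsd17b4 was 0.27 with array weights, 0.57 with quantile normalization, 0.81 with nuclear FPKM, 0.54 without both libraries, and -0.33 to 0.28 over single libraries left out (0.28 without Model replicate 7, 0.17 without LIPUS replicate 10). With scaling it was 0.56, also with the block or without LIPUS replicate 10, 0.87 without Model replicate 7, 0.88 without both and 0.11 with the lobe ratio. Tmprss2 there was -0.069 to 0.33 over single libraries left out, and below 0 without Model replicate 7 or 8 or LIPUS replicate 7 or 8. With scaling and the lobe ratio Srd5a1 was 0.37. In LIPUS against Control, Ncoa4 was 0.93 with scaling, also with the block or without Model replicate 7, 0.81 without LIPUS replicate 10, 0.58 with quantile normalization, 0.64 with nuclear FPKM and 0.64 with scaling and the lobe ratio, where Hsd17b4 was 0.18. The cause of these turns was not tested. Depth limited Srd5a2 in LIPUS replicate 10 (2 reads).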
